A study of Mus musculus with 2 samples.

Results

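The mitochondrial ribosomal protein genes, with symbols Mrpl for the large and Mrps for the small subunit, were compared between control and Lamtor1 knockdown RAW264.7 cells, a mouse macrophage line. The family was picked with earlier results of these data known, and its members were then taken by name, as every array probe that was not a control spot and whose gene name was Mrpl or Mrps followed directly by a digit. This gave 75 genes of 31829 distinct gene names on the array, 46 of the large and 29 of the small subunit, read by 95 probes in 122 spots. All 95 probes carried the symbol that RefSeq gives for their transcript. Of the 75 genes, 74 were well above background on at least 1 array, 45 of the large and all 29 of the small subunit. The exception was Mrpl21, a large-subunit protein, whose single probe was not well above background on either array, at -8.03 in the control and -8.06 in the knockdown.

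The study held 2 samples, 1 named control and 1 named Lamtor1 knockdown, with 1 one-colour microarray each. The labels describe the same handling for both, control included: medium with 10% fetal bovine serum, infection with a lentiviral shRNA product that mixes 2 vectors against Lamtor1, and limiting dilution afterwards. The labels do not say what virus, if any, the control received, nor whether a sample grew from a single cell. Lamtor1 fixes the Ragulator scaffold to the lysosome, where amino acids switch on mTORC1, a kinase that promotes ribosome production and translation. With 1 array per group there was no replicate check, so every difference below describes these 2 RNA samples and carries no test.

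The mitochondrial ribosome translates the few proteins encoded by the mitochondrial genome, all of them core subunits of oxidative phosphorylation. Its ribosomal RNAs are made inside the organelle, while all of its proteins are encoded by nuclear genes, made in the cytosol and imported. Part of these proteins have counterparts in bacterial ribosomes, and the rest are found in mitochondria alone. NRF1, GABP (an ETS factor) and YY1 are known regulators of nuclear genes for mitochondrial proteins. TFEB and its relatives, which mTORC1 holds in check at the lysosome, bind an E-box, CACGTG, with GT before and AC after it.

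A level here is the log2 of the spot's processed intensity minus the log2 of that array's 75th percentile, and a difference is the knockdown level minus the control level of the same probe. The 75th percentile was 1172 in the control and 1255 in the knockdown. No spot was saturated, and 53.3% of 43020 spots in the control and 52.9% in the knockdown were well above background. Of the 122 spots of the family, 121 were well above background on each array. Lamtor1 itself stood at 4.10 in the control and -0.43 in the knockdown, 4.34% of the control signal. All 9 macrophage markers examined were above background on both arrays, among them Csf1r and Cd68. Of 14 markers of other cell types, 4 were above background on both: Cd3e at -1.40 and -1.35, Col1a2 at -5.62 and -5.54, Pecam1 at -4.28 and -5.16, and Kdr at 2.22 and 2.32, control first. None of the B-cell or epithelial markers was. The part of these transcripts in the results was not tested. In bulk RNA, fewer cells with a transcript and less of it per cell cannot be told apart.

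Promoter sequences were available for 66 members in the RefSeq table of the GRCm38.p6 assembly, each running from 250 bases before to 50 bases after the gene's start. The 9 members without an entry were Mrpl4, Mrpl13, Mrpl15, Mrpl19, Mrpl38, Mrpl54, Mrps28, Mrps34 and Mrps35. The 6 stretches below were chosen after the values were seen, as pairs with the same motif whose 2 members lay apart. In the knockdown, the E-box and ETS pairs each held a lower and a higher member, and both NRF1 members were lower. Capitals mark the motif, and each stretch is written 5′ to 3′ on the strand of the gene.

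Mrpl2 and Mrps18c were the only members with the flanked E-box. Mrpl2 (chr17:46646081-46646220, plus strand) is shown up to the base before its start, and Mrps18c (chr5:100798579-100798678, plus strand) ends 80 bases before its own.
Mrpl2: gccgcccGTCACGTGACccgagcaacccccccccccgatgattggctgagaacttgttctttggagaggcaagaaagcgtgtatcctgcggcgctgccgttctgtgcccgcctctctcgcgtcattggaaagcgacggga
Mrps18c: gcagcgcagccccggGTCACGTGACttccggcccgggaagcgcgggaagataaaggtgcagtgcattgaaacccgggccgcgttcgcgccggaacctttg

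Mrps9 and Mrpl12 hold the NRF1 motif, GCGCAN followed by GCGC, here read on the other strand. In Mrps9 (chr1:42851143-42851242, plus strand) the match begins 5 bases before the start and runs into the transcript, of which 10 bases are shown. In Mrpl12 (chr11:120484537-120484636, plus strand) it begins 81 bases before the start.
Mrps9: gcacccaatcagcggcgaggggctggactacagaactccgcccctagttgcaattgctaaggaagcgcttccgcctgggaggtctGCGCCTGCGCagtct
Mrpl12: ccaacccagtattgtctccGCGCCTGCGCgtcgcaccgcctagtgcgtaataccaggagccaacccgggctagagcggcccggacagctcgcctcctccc

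Mrpl43 and Mrpl53 each hold the ETS motif CCGGAAG 2 times within 100 bases of the start. Mrpl43 (chr19:45006443-45006542, minus strand) has both matches on its own strand. Mrpl53 (chr6:83109008-83109107, plus strand) has 1 on each strand, the second reading CTTCCGG.
Mrpl43: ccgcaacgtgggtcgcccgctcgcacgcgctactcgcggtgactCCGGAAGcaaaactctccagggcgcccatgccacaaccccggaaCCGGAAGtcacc
Mrpl53: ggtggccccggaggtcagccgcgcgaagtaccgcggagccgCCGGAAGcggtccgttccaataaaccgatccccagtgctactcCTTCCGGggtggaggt

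Across the family, most transcripts were slightly lower in the knockdown. The median difference over the 74 measured members was -0.16, which is 89.5% of the control signal, and 57 of 74 lay below 0. Among all 13768 measured genes the median was -0.05 and 54.3% lay below 0. A single member, Mrps9, was at least 1.5-fold lower, against 16.1% of all measured genes. None was at least 1.5-fold higher, against 15.3%, so that 1 of 74 lay at or past 1.5-fold in either direction where 31.5% of all measured genes did. No member reached 2-fold in either direction, where 8.35% of all genes were lower and 8.98% higher. Genes with a mean level inside the members' own range and above background on both arrays also spread more widely, with 24.1% of 8812 at 1.5-fold or more in either direction, a median of -0.03 and 52.6% below 0. The family therefore kept within a narrow band. The middle part of the members, from the 25th to the 75th percentile, ran from -0.28 to -0.02, whereas that of all measured genes ran from -0.37 to 0.31. Such a band was not particular to the family. At or past 1.5-fold lay 1.28% of 78 cytosolic ribosomal protein genes and 3.66% of 82 nuclear genes for oxidative phosphorylation subunits. Their middle parts ran from -0.28 to -0.12 and from -0.17 to 0.07.

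**Figure D1:**
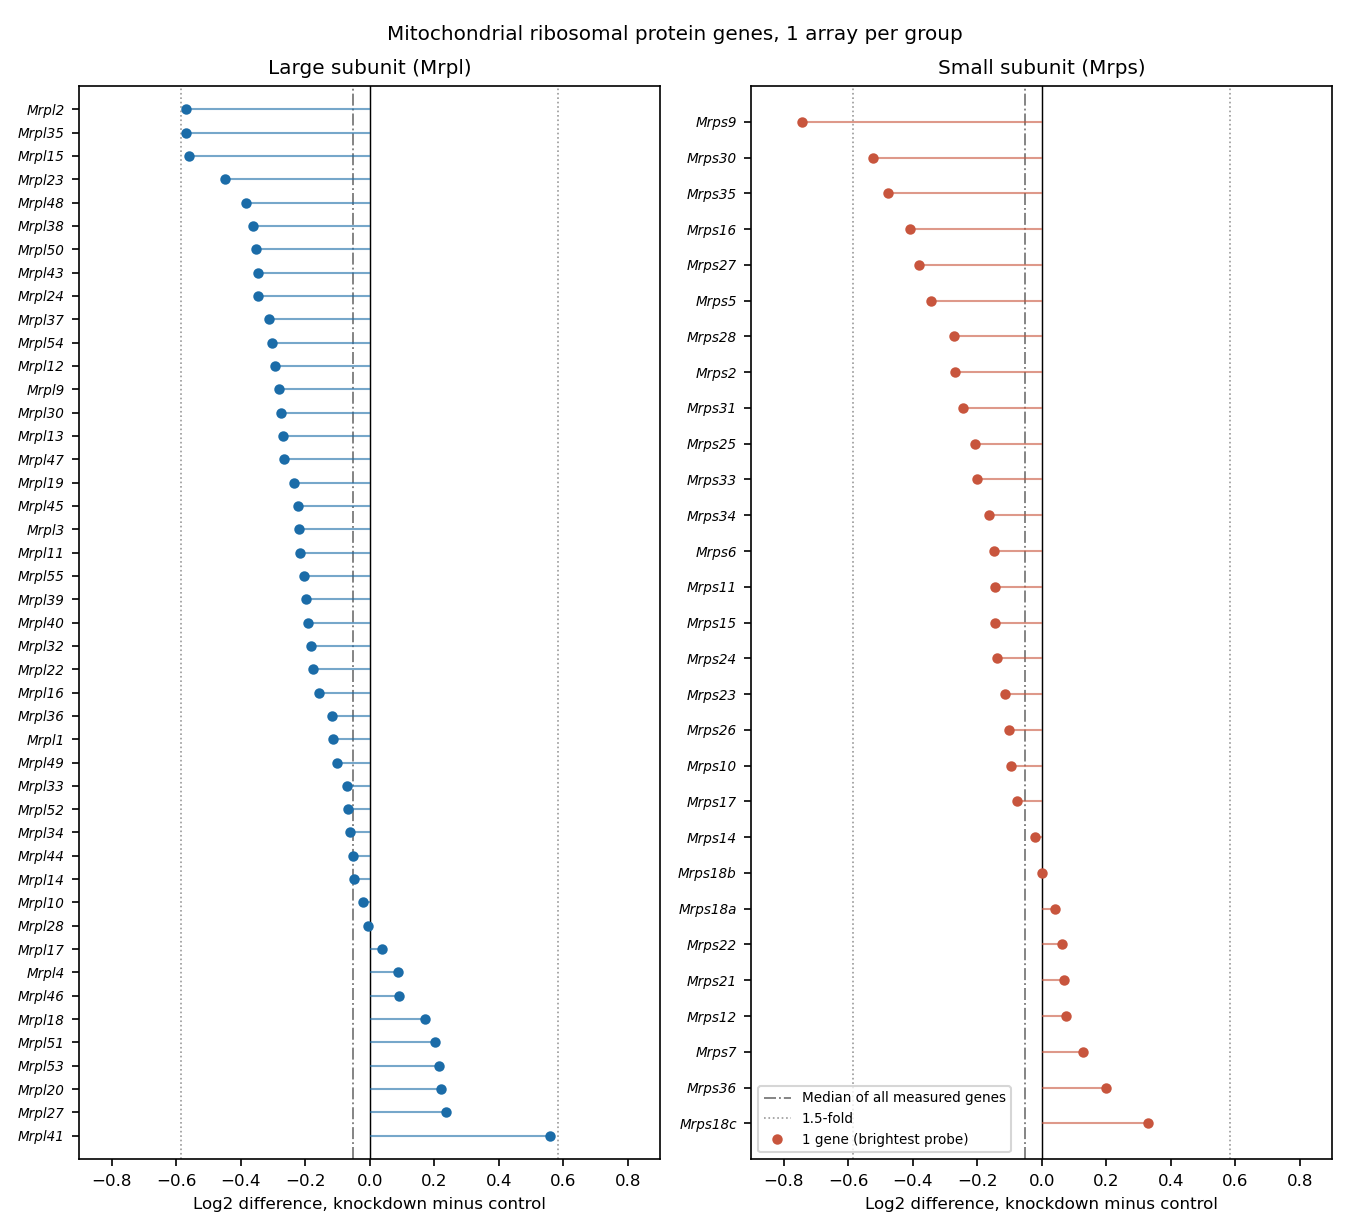
Log2 difference (knockdown minus control) of each of the 74 measured members, 1 point per gene from its brightest probe, for the large subunit (left) and the small subunit (right). Dotted lines mark 1.5-fold and the dash-dotted line the median of all measured genes at -0.05; Mrps9 alone lies outside the dotted lines, and Mrpl41 is the member farthest to the right.

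The large subunit holds the peptidyl transferase centre, where amino acids are joined, and the tunnel through which the new protein leaves. The median difference of its 45 measured genes was -0.19, or 87.6% of the control signal, and 36 lay below 0. With each array centred on its own median in place of the 75th percentile, 16 lay above 0 in place of 9. None reached 1.5-fold in either direction, and the range ran from -0.57 to 0.56.

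The lowest of the large subunit was Mrpl2, which lines the region around the peptidyl transferase centre and also faces the small subunit. Its level was 4.70 in the control and 4.13 in the knockdown, a difference of -0.57 that left 67.4% of the signal. Mrpl35 stood at -1.51 and -2.08, also a difference of -0.57. For Mrpl15 the levels were 1.92 and 1.36, a difference of -0.56. These 3 members lay just inside the 1.5-fold line, and no other large-subunit gene was as far below 0. All 3 passed that line when the 75th percentile was taken over probes above background. Mrpl23, a protein at the mouth of the exit tunnel, followed at 5.39 and 4.94, a difference of -0.45. Mrpl48, found in mitochondria alone and part of the central protuberance at the top of the subunit, stood at 3.77 and 3.39, a difference of -0.38.

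At the other end, Mrpl41 was the only large-subunit gene near 1.5-fold higher. It is found in mitochondria alone and has also been described as a partner of BCL2. Its level was 3.91 in the control and 4.47 in the knockdown, a difference of 0.56 or 147% of the control signal. Over the settings tried, this difference ran from 0.35, with the median over its probes, to 0.65. Mrpl27, a protein close to the peptidyl transferase centre, stood at 2.87 and 3.101, a difference of 0.24. Mrpl20, an early binder of the large ribosomal RNA, went from 4.56 to 4.78, a difference of 0.22. For Mrpl53 the levels were 3.31 and 3.53, and for Mrpl51 5.21 and 5.41, differences of 0.22 and 0.20. After Mrpl41 the upper end of the subunit was thus close together.

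Members with known places in the subunit did not all lie on 1 side of 0. Around the exit tunnel, Mrpl23 differed by -0.45, Mrpl24 by -0.35, Mrpl47 by -0.27 and Mrpl22 by -0.18, but Mrpl4 by 0.09. Mrpl45, which helps to hold the ribosome at the inner membrane, differed by -0.22. In the stalk that recruits translation factors, Mrpl12 differed by -0.29 and Mrpl11 by -0.22, whereas Mrpl10 was close to 0 at -0.02. In the central protuberance, Mrpl48 differed by -0.38, Mrpl38 by -0.36 and Mrpl40 by -0.19, while Mrpl46 and Mrpl18 lay above 0 at 0.09 and 0.17. The sign of Mrpl10 turned with the scaling of the arrays. These sets were put together after the values were known.

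The small subunit binds the messenger RNA and reads its codons. The median difference of its 29 genes was -0.14, or 90.5% of the control signal, with 21 below 0. The range ran from -0.74 to 0.33.

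Mrps9 was the lowest of all 74 members. Its protein reaches with its tail towards the transfer RNA that carries the growing chain. The level was 2.20 in the control and 1.45 in the knockdown, a difference of -0.74 that left 59.7% of the signal and equals 1.67-fold lower. It was read by a single spot, whose probe maps on chromosome 1 in blocks between 42956365 and 42960169 of the mm9 build. Under the other scalings and normalizations its difference stayed between -0.79 and -0.65. Mrps30 followed at 2.95 and 2.43, a difference of -0.52, and Mrps35, found in mitochondria alone, at 1.11 and 0.63, a difference of -0.48. For Mrps16, a member with a bacterial counterpart, the levels were 3.96 and 3.55, a difference of -0.41. Mrps27, which carries pentatricopeptide repeats that are known for binding RNA, stood at 0.24 and -0.14, a difference of -0.38.

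Mrps18c had the highest difference of the small subunit. It is 1 of 3 mammalian relatives of the bacterial protein S18. Its level was 3.29 in the control and 3.62 in the knockdown, a difference of 0.33. The other relatives stayed near 0, Mrps18a at 3.01 and 3.06 and Mrps18b at 3.55 in each array. The sign of Mrps18b turned with the scaling, and that of Mrps18a only after quantile normalization. Mrps36 stood at 3.18 and 3.37, a difference of 0.20; despite its symbol its protein belongs to the 2-oxoglutarate dehydrogenase complex. Mrps7, which organises the head of the subunit, stood at 3.60 and 3.73, a difference of 0.13. Mrps12, a protein of the decoding site, and Mrps21 both differed by 0.07.

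**Figure D2:**
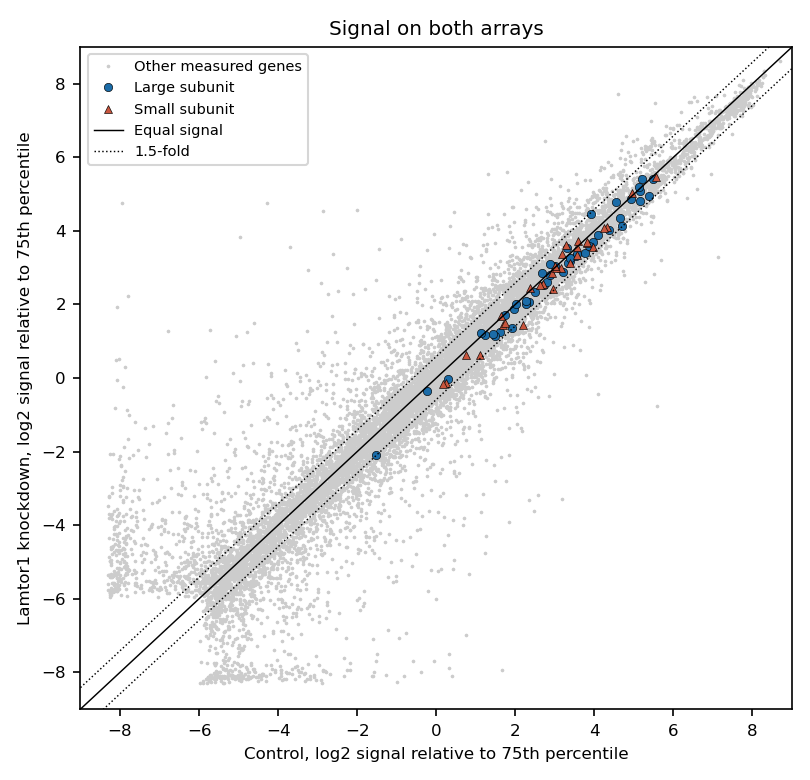
Log2 signal relative to the 75th percentile in the control (x axis) and the Lamtor1 knockdown (y axis), 1 point per gene, with the large subunit as circles, the small subunit as triangles and other measured genes in grey. Apart from Mrps9, the members lie inside the dotted 1.5-fold lines, while 31.5% of all measured genes lie at or outside them.

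The medians of the 2 subunits differed by -0.048, large minus small. The range of the small subunit, from -0.74 to 0.33, overlapped most of that of the large, from -0.57 to 0.56. With the median over probes in place of the brightest probe the gap was -0.022, and after quantile normalization it was -0.065. Relative to the median of all measured genes, the large subunit lay at -0.14 and the small at -0.09. A constant taken from a whole array cannot change these relative values. After quantile normalization they were -0.19 and -0.13, with cyclic loess -0.16 and -0.10, and with normexp -0.13 and -0.07. Across the settings tried, the large median ran from -0.23 to -0.10 and the small from -0.19 to -0.05. Neither turned its sign, and the large subunit was the lower one each time. Scaling by a constant cannot change the gap between the 2 medians, however. The filters on dim probes left both medians as they were, so neither kind of setting checks that gap.

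Sorting by structure in place of the symbol changed little. Mrps30 and Mrps18a sit in the large subunit of the assembled ribosome, and Mrps36 is no part of it. With these placed accordingly and the family's proteins under other symbols added, the median was -0.19 over 51 large-subunit and -0.15 over 30 small-subunit genes. Members with bacterial counterparts and members found in mitochondria alone overlapped as well. In the large subunit the median was -0.18 over 29 of the first kind and -0.19 over 18 of the second. In the small subunit it was -0.14 over 16 and -0.18 over 10.

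Small differences of single genes cannot be read on these arrays. Over 216 probes spotted several times, the median SD of a spot's difference, pairing spots of the same grid position, was 0.0440. The scanner software's own error for a single member spot's difference was larger, with a median of 0.20. Both cover spotting and scanning, not the cultures or the labelling. Of the 74 members, 48 lay below 0 in every setting tried and 14 above 0, while 12 changed sign. Those 12 were Mrpl10, Mrpl14, Mrpl17, Mrpl28, Mrpl33, Mrpl34, Mrpl44, Mrpl52, Mrps14, Mrps17, Mrps18a and Mrps18b. Several settings move all genes by a constant or leave most as they were. A kept sign therefore partly follows from the size on the main scale. Mrps10, counted as below 0 throughout, came as close as -0.0032. The share of all measured genes that kept their sign was not computed.

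For 3 members the array carried the same probe 10 times. Mrps35 ranged from 1.03 to 1.15 over its control spots and from 0.48 to 0.71 over its knockdown spots, with no overlap. Its difference was -0.48 ± 0.066 (SD over 10 spots). The spots of Mrpl50 ranged from 1.45 to 1.54 in the control and from 1.06 to 1.203 in the knockdown, again without overlap, for a difference of -0.35 ± 0.031. Those of Mrpl34 overlapped, from 2.75 to 2.99 and from 2.76 to 2.92, and the difference was -0.06 ± 0.034. Spots of 1 array share its RNA, so these spreads say nothing of variation between cultures. The share of the 216 repeated probes whose spots did not overlap was not computed. The lack of overlap therefore cannot be called particular to these members.

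A second probe was present for 20 members, and 18 of these pairs had the same direction on both probes. The median gap between the probes of a gene was 0.057, and 13 of 20 pairs lay within 0.1. Mrpl43, for example, differed by -0.35 on its brighter and -0.33 on its dimmer probe, and Mrpl27 by 0.24 and 0.29. Over all 95 probes, 72 lay below 0.

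The exceptions touch members named above. Mrps14, a protein of the small subunit's head, differed by -0.02 on its brighter probe, at 3.02 and 2.998, but by -0.65 on its dimmer probe, at -2.10 and -2.75. On the mm9 build these probes lie on chromosome 1 at 162129889 to 162129948 and 162130380 to 162130439. Mrpl50 differed by -0.35 on its brighter probe and 0.06 on its dimmer probe. Mrpl41's second probe lay close to background, at -5.37 and -5.23, and gave 0.15 in place of 0.56. The probes of Mrps18b had opposite signs but both were within 0.02 of 0. Which probe reads the main transcript of Mrps14 or Mrpl50 was not tested.

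**Figure D3:**
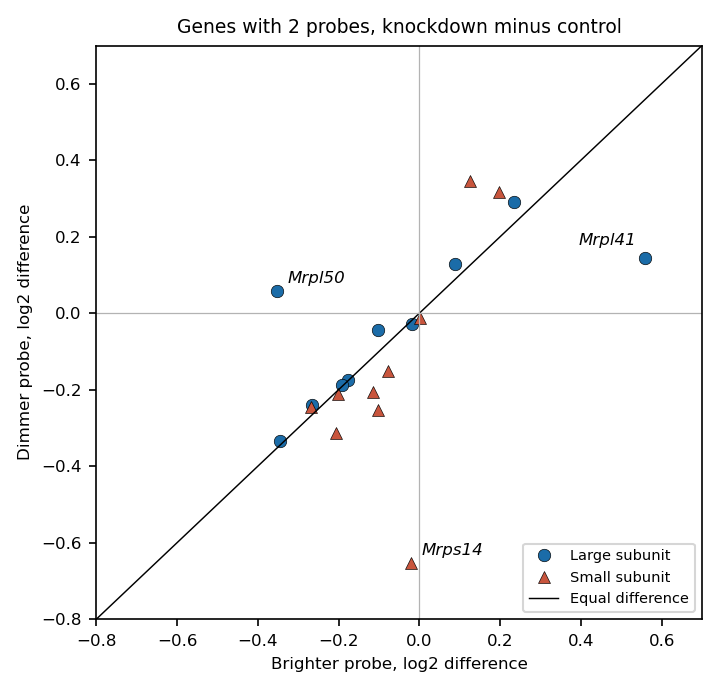
Log2 difference (knockdown minus control) on the brighter probe (x axis) and the dimmer probe (y axis) of the 20 members with 2 probes, circles for the large and triangles for the small subunit. Most points follow the line of equal difference, and Mrps14, Mrpl50 and Mrpl41 lie away from it.

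The array also reads sequences close to family members. Predicted pseudogene copies above background on both arrays lay near their parents. Mrpl23-ps1 differed by -0.38 where Mrpl23 differed by -0.45, and Mrpl27-ps by 0.19 where Mrpl27 differed by 0.24. Mrps36-ps2 differed by 0.35 where the probes of Mrps36 gave 0.20 and 0.32. Transcripts that share nearly identical sequence cannot be told apart by hybridisation, so the values of Mrpl23, Mrpl27 and Mrps36 may hold signal of such copies. A further copy, Mrps36-ps1, went the other way from Mrps36 and was above background in the control alone, at -3.47 against -7.98.

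Several proteins of the mitochondrial ribosome carry other gene symbols and fell outside the naming rule. The list of 7 such genes had a median of -0.21, close to that of the large subunit, and all 7 lay below 0, or 6 of 7 with each array centred on its median. Ptcd3, a small-subunit protein with pentatricopeptide repeats, stood at 3.48 in the control and 3.15 in the knockdown, a difference of -0.33. Chchd1 stood at 5.03 and 4.79, a difference of -0.24. Dap3, a GTP-binding protein of the small subunit also known from cell death, stood at 4.70 and 4.47, a difference of -0.22. Gadd45gip1 differed by -0.21, with -0.44 on its other probe. Aurkaip1 differed by -0.15, Mrpl57 (Mrp63 on the array) by -0.11 and Mrpl58 (Ict1, a peptidyl-tRNA hydrolase that became a ribosomal protein) by -0.05. Mrpl42, named D10Ertd322e on the array, differed by -0.29.

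Of 26 listed genes that build the mitochondrial ribosome or modify its RNA, 25 were measured, with a median of -0.13. In this list 4 were at least 1.5-fold lower and none higher, a share of 16.0% lower next to 16.1% among all measured genes. The median ran from -0.24, with the median over probes, to -0.035, with each array centred on its median. The count of lower genes was 2 in the latter setting and 3 with cyclic loess or normexp. Among all 13768 measured genes that count fell as well. It went from 2223 to 1871 with each array centred on its median, 1906 with cyclic loess and 1521 with normexp. Rbfa, which helps to mature the small ribosomal RNA, stood at 1.70 in the control and 0.85 in the knockdown, a difference of -0.85. Gtpbp10, a GTPase of large-subunit assembly, differed by -0.82 (from -0.52 to -1.34), and its other probe by -0.61. Noa1, another GTPase, differed by -0.66 (from 1.36 to 0.70), and Ddx28, a helicase of large-subunit assembly, by -0.60 (from 0.86 to 0.26).

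Mitochondrial translation factors lay on both sides of 0. Their median over 16 genes was 0.0013 and ran from -0.04 to 0.09 over the scalings and normalizations tried, with 8 of 16 below 0 and none at 1.5-fold on the main scale, where 31.5% of all measured genes were. With each array centred on its median, 6 lay below 0 and 1 was at least 1.5-fold higher, and with cyclic loess 6 lay below 0. Rmnd1, an inner-membrane protein needed for mitochondrial translation, stood at 1.95 and 2.45, a difference of 0.50. Guf1, a translation GTPase, differed by 0.44, with -0.04 on its other probe. Oxa1l, which inserts new proteins into the inner membrane, stood at 4.40 and 3.96, a difference of -0.44, with -0.22 on its other probe.

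The list of mitochondrial transcription and its nuclear regulators lay lower, with a median of -0.37 over 15 measured of 16 listed genes and 12 below 0. In it, 4 genes were at least 1.5-fold lower: Mterf1b at -0.97, Mterf1a at -0.80, Gabpa at -0.80 and Twnk at -0.62, next to 16.1% of all measured genes. With each array centred on its median, cyclic loess or normexp, 3 were. The count among all measured genes fell as well, from 2223 to 1871, 1906 and 1521 in that order. Mterf1a and Mterf1b are close copies whose signals may be shared. Gabpa, the ETS subunit of GABP, stood at -0.0022 in the control and -0.81 in the knockdown, but its other probe differed by only -0.15. NRF1's own gene, Nrf1, stood at 0.45 and 0.08, a difference of -0.37, and its other probes reached -0.75. Yy1 stood at 1.25 and 0.98, a difference of -0.27. Ppargc1a, a coactivator for mitochondrial gene programmes, was detected above background in the knockdown alone, and its level there of -4.62 was at least 2.55-fold higher than the lowest control signal above background. Its other probe differed by -0.05.

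The transcripts that the mitochondrial ribosome translates lay above 0 as a group. Of 15 mitochondrially encoded transcripts listed, 12 had a named probe and were measured, with a median of 0.31 and 9 above 0. Among all 13768 measured genes, 6289 lay above 0 and the median was -0.05. In the list, 1 transcript was at least 1.5-fold higher and 1 lower, next to 15.3% and 16.1% of all measured genes. ND3 stood at 4.71 in the control and 5.51 in the knockdown, a difference of 0.80. CYTB differed by 0.56 and ND4L by 0.53. ND6, the only one of them encoded on the other strand of the mitochondrial genome, was lower, from 0.78 to -0.28, a difference of -1.06. COX1 and COX3, at -0.15 and -0.02, were the other ones below 0. The labels give priming with oligo-dT, and how mitochondrial RNA tails affect these values was not tested.

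The proteins of the cytosolic ribosome, measured on the same arrays, had a median of -0.19 over 78 genes, with 71 below 0, and the large and small subunits of that ribosome stood at -0.19 and -0.21. After quantile normalization that median was -0.079 with 57 below 0, where the mitochondrial subunits stood at -0.22 and -0.16. With cyclic loess it was -0.084 with 59 below 0, and with each array centred on its median -0.099 with 64 below 0. Nuclear genes for oxidative phosphorylation subunits lay closer to all genes, with a median of -0.07 over 82 and 53 below 0. With each array centred on its median that value was 0.02, so its sign turned, and with cyclic loess it was 0.01. The median of all measured genes turned as well, to 0.04 and 0.03 in these settings.

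**Figure D4:**
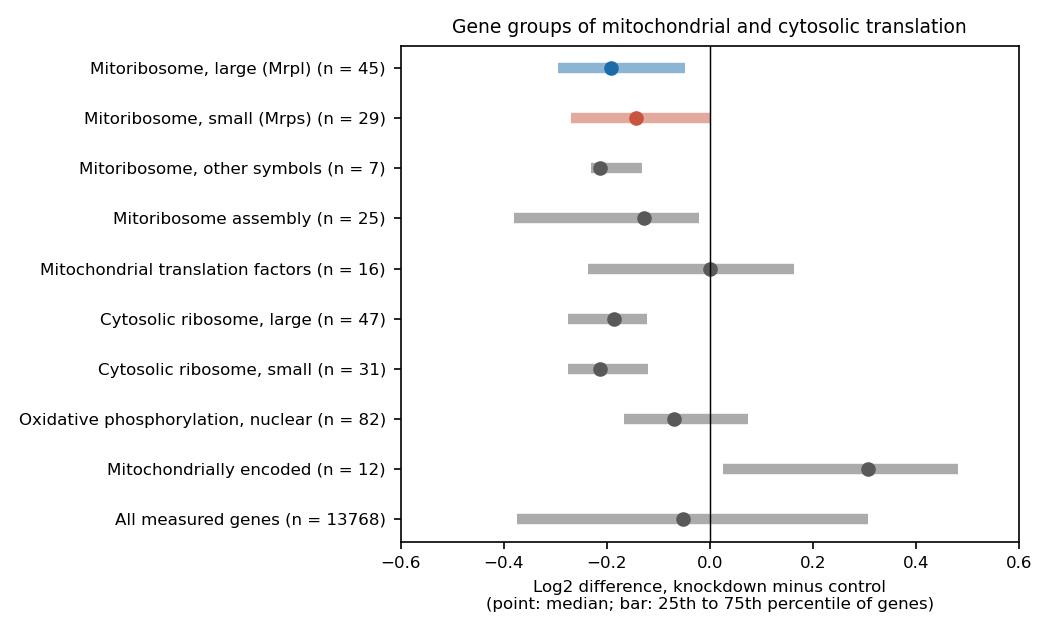
Median log2 difference (points) and the range from the 25th to the 75th percentile of genes (bars) for the 2 subunits, related gene lists and all 13768 measured genes, on the 75th-percentile scale. Both subunits of both ribosomes lie between -0.14 and -0.21, translation factors at 0 and mitochondrially encoded transcripts at 0.31.

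Members were also compared with their surroundings on the chromosomes. Each was set beside the median of the other measured genes within 5 Mb on the mm9 build. Of 74 members, 51 lay below their neighbours' median, 30 of 45 in the large and 21 of 29 in the small subunit, and the median gap was -0.12. The share of all measured genes below their own neighbours was not computed. As 57 of the 74 members lay below 0 themselves, the count is no separate result about chromosome position. Mrpl3, a conserved protein near the peptidyl transferase centre, differed by -0.22 where its neighbours stood at 0.38. Mrps22 differed by 0.06 where its neighbours stood at 0.43. For Mrps9 the neighbours stood at -0.02 and for Mrpl2 at -0.18.

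In the RefSeq table, 25 of 66 members (37.9%) had a head-to-head neighbour, a gene running the other way whose start lay at most 1000 bases away, next to 19.0% of measured genes. Of such pairs, 22 were measured on both sides, and in 14 of them (63.6%) both genes differed in the same direction. Over all 688 measured head-to-head pairs of the table the share was 58.0%. Mrpl43 and Twnk, the mitochondrial DNA helicase, start 116 bases apart and differed by -0.35 and -0.62. Mrps27 and Ptcd2 start 108 bases apart and differed by -0.38 and -0.34. Mrpl46 and Mrps11, which are each other's neighbours with starts 42 bases apart, differed by 0.09 and -0.14.

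The widest split within a pair was that of Mrpl2 and Klc4, a kinesin light chain. Their starts lie 141 bases apart, with the flanked E-box printed above between them and 133 bases from the start of Mrpl2. Mrpl2 was lower, from 4.70 to 4.13, whereas Klc4 was higher, from 2.82 to 3.61, a difference of 0.78. Mrpl41 and Pnpla7, a lysophospholipase, start 935 bases apart and both lay above 0, at 0.56 and 1.45. Mrps18c and Helq, a DNA helicase, start 159 bases apart and differed by 0.33 and 0.06. Mrpl51 and Ncapd2, a condensin subunit, start 614 bases apart and differed by 0.20 and -0.53.

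**Figure D5:**
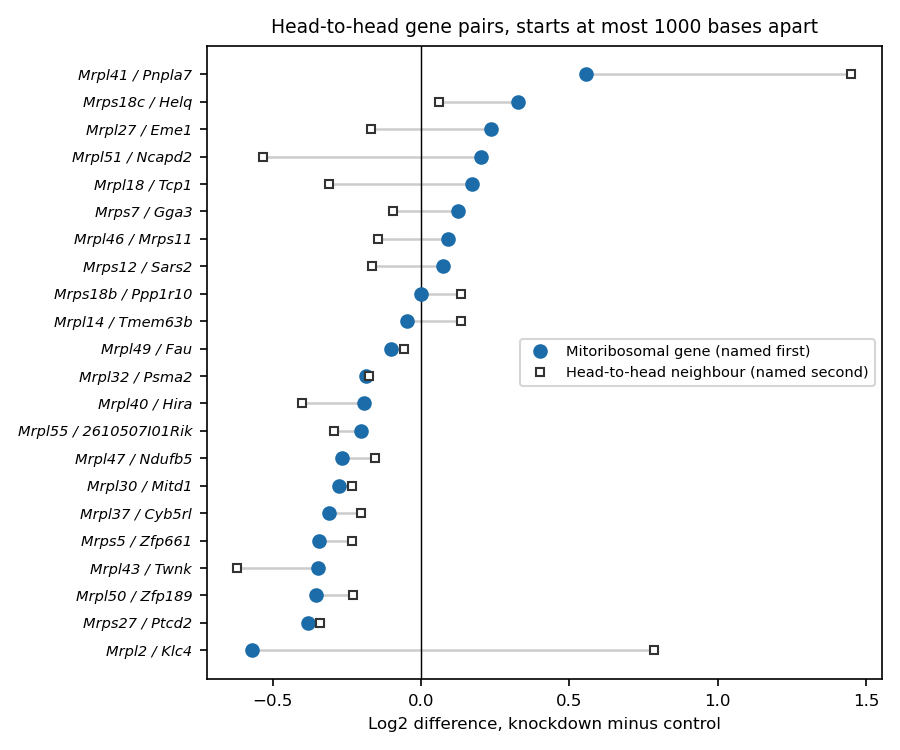
Log2 difference (knockdown minus control) of each mitochondrial ribosomal protein gene (circle) and its head-to-head neighbour (square) for the 22 pairs measured on both sides, ordered by the first gene. Circles and squares lie close together for pairs such as Mrps27 and Ptcd2 and far apart for Mrpl2 and Klc4, at -0.57 and 0.78.

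Motifs of the regulators named above were counted per gene on both strands of the whole window. The ETS motif CCGGAAG occurred in 24 of 66 members (36.4%), in 19.2% of measured genes and in 9.93% of all genes of the table. The NRF1 motif, GCGCAN followed by GCGC, occurred in 12 of 66 (18.2%), against 10.8% and 5.19%. The YY1 motif, AAGATGG followed by CGGC, occurred in 5 of 66 (7.58%), against 1.74% and 0.755%. The plain E-box CACGTG occurred in 5 of 66 (7.58%), against 11.4% and 8.09%, and its flanked form, which contains it, in 2 of 66 (3.03%), against 0.725% and 0.370%. Within 100 bases before the start, the ETS motif was left in 21.2% of members, the NRF1 motif in 12.1% and the YY1 motif in 0 of 66, against 10.4%, 6.10% and 0.179% of measured genes. In that window the plain E-box was left in 3.03% of members and its flanked form in 0 of 66, against 5.41% and 0.358% of measured genes. A match of letters is a description of the sequence and not evidence of binding.

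Members with a motif did not share a difference. The 12 with the NRF1 motif ran from Mrps9 at -0.74 to Mrps21 at 0.07, with a median of -0.19, next to -0.14 for the 53 measured members without it. The 23 measured members with the ETS motif ran from Mrps16 at -0.41 to Mrps18c at 0.33, with a median of -0.06 next to -0.19 for the other 42. Of the sequences printed above, Mrpl43 and Mrpl53 both hold the ETS motif 2 times and differed by -0.35 and 0.22. That pair was picked with these values known, so its split is an example and no measure of how motif holders differ. The flanked E-box stands in Mrpl2, the lowest member of the large subunit, and in Mrps18c, the highest of the small. In Mrps18c an ETS match, read on the other strand, follows directly on the E-box and shares a base with it. The 5 members with the YY1 motif were Mrpl35 at -0.57, Mrps27 at -0.38, Mrpl37 at -0.31, Mrps11 at -0.14 and Mrps18a at 0.04, a set whose median was -0.31 next to -0.13 for the other 60. With the shorter form AAGATGG followed by CG, 7 members had a median of -0.14 next to -0.13 for the other 58.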

How the data were processed

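RNA of 1 control and 1 Lamtor1 knockdown sample of RAW264.7 cells was hybridised to 1 one-colour array each; per the labels, 200 ng of RNA per sample was primed with oligo-dT and labelled with Cy3. The deposited scanner files give spot intensity on a linear scale, which the submitters' processing notes credit to Agilent Feature Extraction 10.7.3.1. Probes are placed on mm9 per the file headers, which also put both arrays on 1 slide and in 1 scan. The deposited value table holds the same intensity rounded (the ratio of scanner to deposited values ran from 0.995 to 1.005; column medians 34.2 and 34.4), so its scale is linear and uncentred.

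From these, outlier spots (162 and 177) were left out, the log2 values of repeated spots were averaged, and a gene took its brightest probe; it was measured where over 50% of that probe's spots were well above background on at least 1 array. The number of arrays limits the precision. Other probes were named through RefSeq (GRCm38.p6): 26153 of 39420 by accession, 3128 by symbol, 910 by an older symbol and 9229 not. Members and lists were chosen with earlier results of these data known. Named were the 5 highest and 5 lowest members of each subunit, any at 1.5-fold or more, members not above background, members whose probes disagree in direction or by over 0.5, members with other symbols or placed in the other subunit, up to 3 genes per list with the largest differences, and Lamtor1; further members, head-to-head partners and motif holders were named after their values were seen. The computing steps were checked on simulated data; this is no test of a difference. Alternatives were other scalings, limma 3.58.1 normalizations (R 4.3.3; quantile, cyclic loess, normexp with offset 50), the value table, filters on dim probes, the median over probes, outliers kept and subunits by structure; the 2-fold threshold and the genes of like level were added after the data were seen.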

Additional observations from a re-analysis of the deposited data

How the results depend on the processing

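The sign of both subunit medians held in every setting tried. With each array centred on its median, the large median was -0.10 and the small -0.051, 16 large-subunit genes lay above 0 and 1, Mrpl41, was at least 1.5-fold higher. With cyclic loess the medians were -0.13 and -0.077, 15 large-subunit genes lay above 0 and 1 was at least 1.5-fold higher. With the 75th percentile over probes above background, 3 large-subunit genes were at least 1.5-fold lower in place of 0, and the medians were -0.23 and -0.19. At 2-fold, a threshold chosen after seeing the data, the count of lower small-subunit genes went from 1 to 0. The cause was not tested for cyclic loess; the other shifts follow from the constants and the threshold themselves. In the remaining settings the large median ran from -0.22 to -0.17 and the small from -0.16 to -0.12, and the counts stayed within 1.5 times. By gene, centring on the median and cyclic loess moved all 74 members by more than the spotting SD of 0.0440, quantile normalization moved 14, normexp 13 and the median over probes 8. No paired analysis was possible because each group holds 1 array, and no array could be left out. For the same reason the spread between cultures is unknown, and the second probe of Mrpl41 lies close to background.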
